A study of Homo sapiens with 4 samples.

Results

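The genes described here are 10 members of the YAP and TEAD pathway, 10 of the 17791 genes in the deposited table, taken by symbol: the coactivators YAP1 and WWTR1, the DNA-binding factors TEAD1, TEAD3 and TEAD4, the target genes CCN1, CCN2, AMOTL2 and AXL, and LATS2, which is both a kinase of the pathway and a target of it. They were measured by bulk RNA sequencing in 4 libraries from engineered prostate cancer tissues at day 15, made by embedding human cells in a gel of poly(ethylene glycol) and fibrinogen. The groups were LNCaP coculture, LNCaP monoculture, PC-3 coculture and PC-3 monoculture, with 1 library each. LNCaP and PC-3 are established prostate cancer lines, labelled androgen-dependent (ADPC) and castration-resistant (CRPC-ne) by the submitters. The cocultures were seeded at 5 cancer cells to 1 BJ-5ta cell, an immortalised line of normal human fibroblasts. No treatment is labelled for any group, every group carries the gel, and the labelled growth protocol names only PC-3 medium, which leaves the LNCaP medium unstated. RNA came from more than 2 tissues a group, and pooling was not stated. The series compares tissues with and without fibroblasts in either line.

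The pathway, named after the Hippo kinase of Drosophila, holds back growth at high cell density. The kinases STK3 and STK4 activate LATS1 and LATS2, which phosphorylate YAP1 and its paralogue TAZ (the product of WWTR1) and keep them in the cytoplasm; unphosphorylated, the coactivators enter the nucleus and bind TEAD factors, which recognise DNA but activate little alone. In epithelial cancer cells and in fibroblasts on stiff matrix, their best known targets are the secreted matricellular proteins CCN1 and CCN2. Transcript levels show the supply of these components and of target transcripts, not phosphorylation or location in the cell.

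The TEAD recognition letters GGAATG were looked for in the RefSeq promoter windows of the members (GRCh38.p14, 250 bases before to 50 after the start, either strand), because they are the feature by which TEAD factors find a target. Windows were matched for 7 of the 10 members (YAP1, WWTR1, TEAD3, CCN2, AMOTL2, AXL and LATS2), 10 windows in all. CCN2 held 3 matches, and at least 3 were found in 0.128% of all 35116 windows (at least 1 match was found in 14% of them, and at least 2 in 1.37%). YAP1, LATS2, 1 of the windows of AMOTL2 and 1 of those of AXL held 1 match each, a common count, and the windows of WWTR1 and TEAD3 held none. None of the 10 windows held the AP-1 letters TGANTCA, which 7.71% of all windows hold. A match is a description of these letters and not a site of binding. The stretch of CCN2 before its start is shown whole because it holds the cluster, with the matches in capitals, and the others as 30 bases around the match, all 5′ to 3′ in the direction of the gene.
CCN2, chr6:131951373-131951622, minus strand: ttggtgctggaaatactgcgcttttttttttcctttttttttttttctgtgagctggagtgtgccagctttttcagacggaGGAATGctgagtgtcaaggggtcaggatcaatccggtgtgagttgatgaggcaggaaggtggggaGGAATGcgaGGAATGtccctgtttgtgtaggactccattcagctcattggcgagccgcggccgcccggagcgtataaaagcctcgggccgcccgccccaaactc
YAP1, chr11:102110273-102110302, plus strand: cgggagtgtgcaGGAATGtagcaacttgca
AMOTL2, chr3:134374499-134374528, minus strand: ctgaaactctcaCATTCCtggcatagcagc
AXL, chr19:41226531-41226560, plus strand: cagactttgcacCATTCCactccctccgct
LATS2, chr13:21061560-21061589, minus strand: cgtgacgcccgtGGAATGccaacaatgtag

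Levels below are CPM, counts per 1000000 counts after TMM scaling, and each is followed where it matters by its exact 95% Poisson interval. Total counts lay between 15520243 and 15865690, so that 3 counts, the floor taken here for a count of 0, are 0.188 to 0.193 CPM. Folds are ratios of scaled counts, with exact conditional binomial intervals at 95%. These intervals cover counting error only: no group had a replicate, no difference between groups was tested, and each comparison is of 2 libraries. Whether a gene reached 2-fold in either direction was read from its log2 fold (prior count 2), for genes that reached 1 CPM in either library compared, as all 10 members did in every comparison. For genes with a 0, "at least" gives the bound against 3 counts.

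The labels were checked on marker genes. KLK3, prostate-specific antigen, had 74134 counts in the LNCaP coculture and 60226 in the LNCaP monoculture, and 0 in either PC-3 library. All 15 fibroblast markers reached 1 CPM in either coculture, with summed levels of 1205 CPM in the LNCaP coculture and 1034 CPM in the PC-3 coculture, against 3 and 6 markers and 33.4 and 347 CPM in the monocultures of LNCaP and PC-3. The 6 of the PC-3 monoculture were COL1A1 (194 CPM), COL3A1 (43.7), FBLN1 (41.5), COL6A3 (37.3), COL5A1 (17.0) and PDGFRA (11.7). The sum of a coculture is therefore not a measure of fibroblast RNA alone. The mesenchymal surface gene CD248 had 20.0 CPM in the LNCaP coculture and 19.1 CPM in the PC-3 coculture, and 1 and 0 counts in the monocultures. Other markers were less even: 3 of the 15 were at least 2-fold higher in the LNCaP coculture than in the PC-3 coculture and 1 lower. Over all genes 20.7% were higher and 23.6% lower. DCN (25.7 against 6.25 CPM), LUM (37.3 against 11.0 CPM) and MMP2 (115 against 39.4 CPM) were higher, and COL3A1 (45.8 against 111 CPM) lower. Of 10 prostate epithelial markers, all 10 reached 1 CPM in either LNCaP library, 9 in the PC-3 coculture, and 8 in PC-3 without fibroblasts. Of 3 endothelial markers, KDR was at 0 in either LNCaP library, and the summed level was 36.6 and 10.8 CPM in the LNCaP coculture and monoculture, against 233 and 218 CPM in the PC-3 coculture and monoculture. PECAM1 had 1 and 0 counts in those LNCaP libraries and 1091 and 806 counts in those of PC-3. VWF went the other way, at 36.6 and 10.8 CPM in those LNCaP libraries and 3 and 0 counts in those of PC-3. CD14, the leukocyte marker read from the table, reached at most 26 counts.

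**Figure D1:**
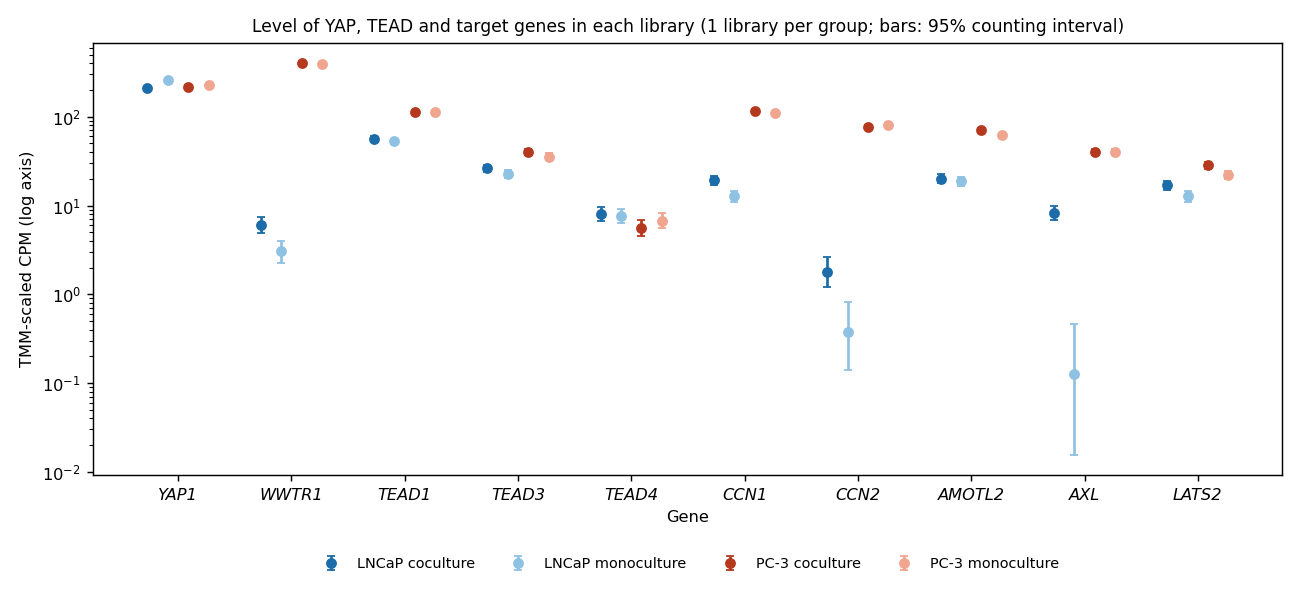
CPM on a log axis of the 10 genes in the 4 libraries, LNCaP coculture, LNCaP monoculture, PC-3 coculture and PC-3 monoculture from left to right, 1 library each, with 95% counting intervals. YAP1 lies between 211 and 259 CPM in all 4, while WWTR1, CCN1, CCN2 and AXL are lower in the LNCaP libraries, and the AXL interval of the LNCaP monoculture rests on 2 counts.

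The main contrast between the cancer lines lay in WWTR1, the paralogue of YAP1, and in the targets, not in YAP1 itself. In the monocultures, 6 of the 10 members were at least 2-fold lower in LNCaP than in PC-3 and 0 were at least 2-fold higher, where 23.6% of 15160 genes were lower and 22.1% higher by the same rule. In the cocultures 5 were lower and 0 higher, where 23.6% of 15155 genes were lower and 20.7% higher. The members' median log2 fold was -1.40 in either pair of libraries, against 0.04 over all genes in the monocultures and 0.01 in the cocultures. The comparisons within a line and between lines share libraries, so they are not independent of each other.

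YAP1 (chromosome 11, 102110447 to 102233424), the coactivator that LATS kinases phosphorylate, had 211 CPM in the LNCaP coculture and 259 CPM in its monoculture, with 218 CPM in the PC-3 coculture against 227 CPM in the PC-3 monoculture. The 4 levels lay close together, with the LNCaP monoculture 1.14-fold above the PC-3 monoculture (1.09 to 1.19) and the LNCaP coculture at 0.970 of the PC-3 coculture (0.924 to 1.02). WWTR1 (chromosome 3, 149517235 to 149724788), which encodes TAZ, had 6.06 CPM (4.90 to 7.42) in the LNCaP coculture and 3.04 CPM (2.24 to 4.03) in its monoculture, with 399.8 CPM in the PC-3 coculture against 393 CPM in the PC-3 monoculture. It was low in LNCaP and abundant in PC-3: 129-fold lower in the LNCaP monoculture (97.5 to 176) and 66.0-fold lower in the LNCaP coculture (53.8 to 81.8). Of all genes, 1.85% had a lower log2 fold than WWTR1 between the monocultures.

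To set the coactivators side by side, levels were divided by the length of each gene's merged GENCODE exons. On this scale of CPM per kb, WWTR1 stood at 0.0215 times YAP1 in the LNCaP coculture (0.0173 to 0.0264) and 0.00878 times in the LNCaP monoculture (0.00646 to 0.0117), and at 1.37 times in the PC-3 coculture (1.32 to 1.43) and 1.30 times in the PC-3 monoculture (1.25 to 1.35). The LNCaP libraries therefore held almost only YAP1 transcripts and the PC-3 libraries somewhat more WWTR1 than YAP1, as far as merged exons stand for the transcripts in use. The library kit does not mark the strand, and transcripts of other genes cover 9.97% of the exon bases of YAP1 and 9.45% of those of WWTR1. Among the other members the largest such share was that of CCN2, at 8.34%. The antisense gene WWTR1-AS1 had 0 counts in either LNCaP library and 7 and 14 counts in the PC-3 coculture and monoculture.

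**Figure D2:**
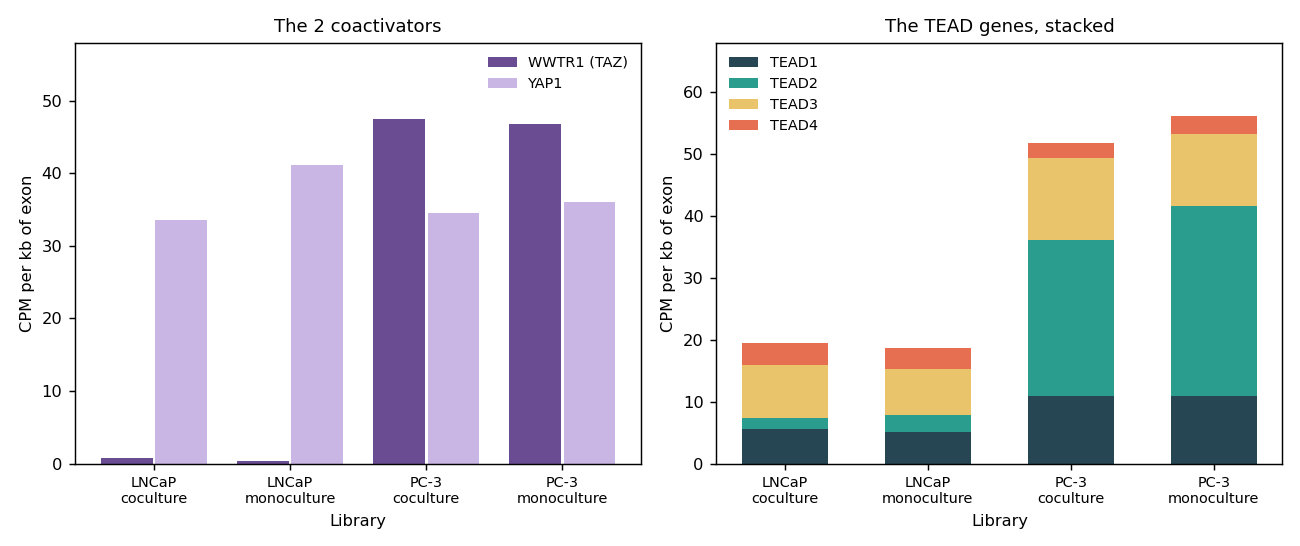
Levels in CPM per kb of merged exon in the 4 libraries, with WWTR1 and YAP1 as paired bars on the left and the 4 TEAD genes stacked on the right. WWTR1 is 0.720 and 0.361 CPM per kb in the LNCaP coculture and monoculture, against 47.5 and 46.7 in the PC-3 coculture and monoculture, and TEAD2 makes up most of the difference in stack height.

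The TEAD factors differed less between the lines than WWTR1 did. TEAD1 (chromosome 11, 12674421 to 12944737), the broadly expressed family member, had 56.8 CPM in the LNCaP coculture, 52.8 CPM in the LNCaP monoculture and 112 CPM in either PC-3 library. It was 2.12-fold lower in the LNCaP monoculture than in the PC-3 monoculture (1.95 to 2.31) and 1.97-fold lower in the LNCaP coculture than in the PC-3 coculture (1.82 to 2.14), on either side of the 2-fold line. TEAD3 (chromosome 6, 35473597 to 35497079) had 26.2 CPM in the LNCaP coculture and 22.9 CPM in its monoculture, with 40.2 CPM in the PC-3 coculture against 35.5 CPM in the PC-3 monoculture. Its level was 1.55-fold lower in the LNCaP monoculture (1.36 to 1.78) and 1.54-fold lower in the LNCaP coculture (1.35 to 1.74). TEAD4 (chromosome 12, 2959397 to 3040676) had 8.12 CPM in the LNCaP coculture and 7.66 CPM in its monoculture, with 5.62 CPM in the PC-3 coculture against 6.77 CPM in the PC-3 monoculture. TEAD4 was thus the member whose level was higher in LNCaP in the cocultures (1.45-fold, 1.09 to 1.92), while the interval of the monocultures held 1 (1.13-fold, 0.866 to 1.48).

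The family member with the widest gap was TEAD2, which is not among the 10 and came from the list of TEAD-binding genes. It had 5.29 CPM in the LNCaP coculture and 8.04 CPM in its monoculture, with 75.1 CPM in the PC-3 coculture against 91.3 CPM in the PC-3 monoculture. On the CPM per kb scale TEAD2 made up 9.11% and 14.4% of the summed TEAD level in the LNCaP coculture and monoculture, against 48.7% and 54.5% in the PC-3 coculture and monoculture. TEAD3 was the largest share in the LNCaP libraries, at 44.1% in the coculture and 40.1% in the monoculture. The summed TEAD level was 19.5 and 18.7 CPM per kb in the LNCaP coculture and monoculture and 51.8 and 56.2 CPM per kb in the PC-3 coculture and monoculture.

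The targets were lower in LNCaP by widely differing folds. CCN2 (chromosome 6, 131948176 to 131951372), connective tissue growth factor, had 1.81 CPM (1.20 to 2.61) in the LNCaP coculture and 0.380 CPM (0.139 to 0.827) in its monoculture, with 76.3 CPM in the PC-3 coculture against 81.2 CPM in the PC-3 monoculture. The LNCaP libraries held 28 and 6 counts of it, and it was 42.3-fold lower in the LNCaP coculture than in the PC-3 coculture (29.1 to 63.9) and 214-fold lower in the LNCaP monoculture than in the PC-3 monoculture (97.9 to 583). CCN1 (chromosome 1, 85580761 to 85583950), the related matricellular protein CYR61, had 19.2 CPM in the LNCaP coculture and 12.7 CPM in its monoculture, with 115 CPM in the PC-3 coculture against 111 CPM in the PC-3 monoculture. It was 6.00-fold lower in the LNCaP coculture (5.30 to 6.80) and 8.76-fold lower in the LNCaP monoculture (7.56 to 10.2), so that CCN1 was well above the floor in the LNCaP monoculture, where CCN2 was close to it.

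AXL (chromosome 19, 41219223 to 41261766), a receptor tyrosine kinase for the ligand GAS6, had 8.32 CPM (6.94 to 9.88) in the LNCaP coculture, 0.127 CPM (0.0153 to 0.458) in the LNCaP monoculture and 40.3 CPM in either PC-3 library. The LNCaP monoculture held 2 counts against 644 in the PC-3 monoculture, 319-fold lower (87.8 to 2636), while the LNCaP coculture was 4.85-fold lower than the PC-3 coculture (4.01 to 5.91). AMOTL2 (chromosome 3, 134355345 to 134375417), a scaffold of the angiomotin family that binds YAP1, had 20.0 CPM in the LNCaP coculture and 18.8 CPM in its monoculture, with 71.0 CPM in the PC-3 coculture against 62.3 CPM in the PC-3 monoculture. Its fold was more even than that of the secreted and surface targets: 3.54-fold lower in the LNCaP coculture (3.12 to 4.03) and 3.31-fold lower in the LNCaP monoculture (2.91 to 3.79). LATS2 (chromosome 13, 20973036 to 21061586), the kinase that the coactivators also induce, had 16.8 CPM in the LNCaP coculture and 12.7 CPM in its monoculture, with 28.5 CPM in the PC-3 coculture against 22.3 CPM in the PC-3 monoculture. It was 1.70-fold lower in the LNCaP coculture (1.45 to 1.98) and 1.75-fold lower in the LNCaP monoculture (1.47 to 2.09), short of 2-fold in either pair.

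By level per kb, the members fell in a different order in the lines. In the PC-3 monoculture WWTR1 (46.7 CPM per kb, 45.6 to 47.9) and CCN1 (45.4, 43.3 to 47.6) came first with overlapping intervals, followed by YAP1 (36.0, 34.9 to 37.2) and CCN2 (34.7, 32.8 to 36.7), which also overlapped. In the LNCaP monoculture YAP1 came first (41.1 CPM per kb, 39.9 to 42.4), well ahead of TEAD3 (7.51), CCN1 (5.18) and TEAD1 (5.14), and the last 3 places were held by WWTR1, CCN2 and AXL. TEAD4 was last in either PC-3 library and at rank 5 in either LNCaP library.

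Setting the LNCaP coculture against its monoculture asks how these genes stand when fibroblasts share the gel with the androgen-dependent line. AXL and CCN2 were at least 2-fold higher, 2 of the 10 members, and 0 were at least 2-fold lower, where 4.56% of 14119 genes were higher and 3.03% lower. AXL was 65.7-fold higher (129 against 2 counts, 17.8 to 548), and 99.5% of the genes had a lower log2 fold. CCN2 was 4.75-fold higher from very few counts (28 against 6, 1.93 to 14.0), and with a minimum of 5 CPM in place of 1 CPM it was not counted, which left AXL alone. The members' median log2 fold was 0.30, against 0.00 over all genes.

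The remaining members differed by less. WWTR1 was 1.99-fold higher in the LNCaP coculture (94 against 48 counts, 1.39 to 2.88), just under the line, and with DESeq2 scaling its log2 fold was 1.00 and the count of higher members 3. CCN1 was 1.51-fold higher (1.26 to 1.81) and LATS2 1.32-fold higher (1.10 to 1.60). YAP1 was the member with a lower level, at 0.815 of the monoculture (0.778 to 0.853), a fold below which 20.7% of all genes lay. The intervals of TEAD1 (1.08-fold), TEAD3 (1.14-fold), TEAD4 (1.06-fold) and AMOTL2 (1.07-fold) held 1. In the same library 15 of 15 fibroblast markers were at least 2-fold higher, at a median log2 fold of 6.72, or 6.16 if genes at 0 take their bound. Whether the AXL, CCN2, CCN1 and WWTR1 transcripts of the LNCaP coculture came from BJ-5ta cells or from LNCaP cells cannot be told apart in a bulk library, nor can fewer cells of a type be told apart from less RNA per cell.

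**Figure D3:**
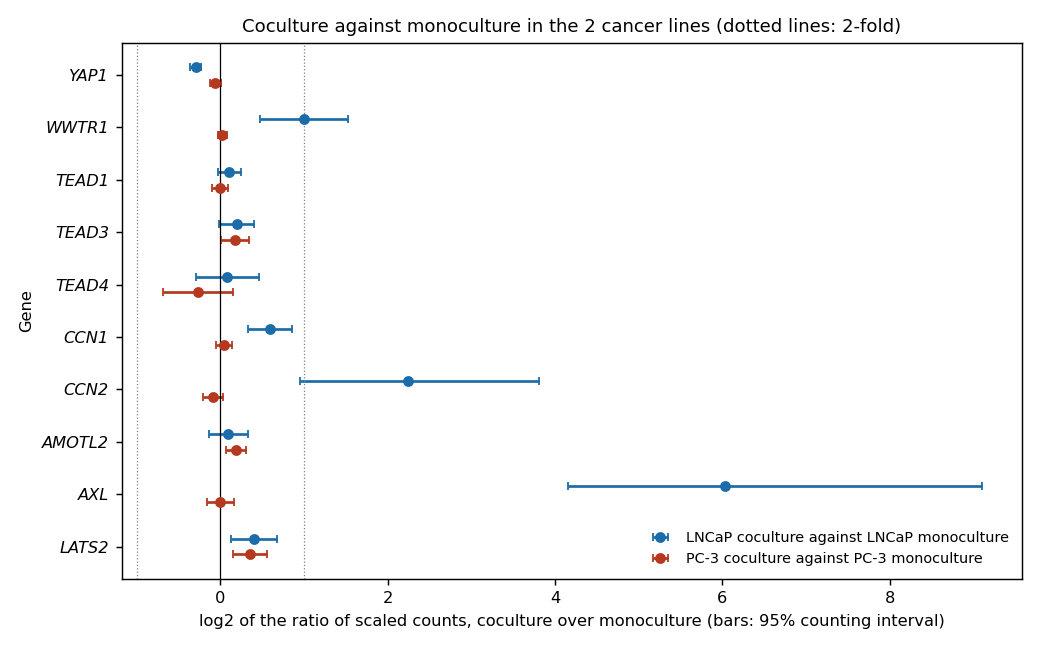
Log2 of the ratio of scaled counts for each gene, coculture over monoculture, with LNCaP (blue) above PC-3 (red) in each row and 95% counting intervals; dotted lines mark 2-fold. AXL and CCN2 lie to the right of the 2-fold line in LNCaP, WWTR1 lies at it, and all PC-3 points lie between 0.830-fold and 1.28-fold.

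The PC-3 coculture, with the castration-resistant line, held these genes at nearly the levels of the PC-3 monoculture. Of the 10 members 0 were at least 2-fold higher and 0 lower, counts near the shares over all genes. Those shares were 2.22% of 14417 genes higher and 1.01% lower. The members' median log2 fold was 0.01, against 0.00 over all genes. LATS2 was 1.28-fold higher (28.5 against 22.3 CPM, 1.11 to 1.47), AMOTL2 1.14-fold higher (71.0 against 62.3 CPM, 1.04 to 1.24) and TEAD3 1.13-fold higher (40.2 against 35.5 CPM, 1.01 to 1.27). The intervals of the other 7 held 1, among them AXL (1.00-fold, 0.894 to 1.12), WWTR1 (1.02-fold, 0.981 to 1.05), CCN1 (1.03-fold, 0.968 to 1.10) and CCN2 (0.940-fold, 0.868 to 1.02). Of the fibroblast markers 11 of 15 were at least 2-fold higher in this library, at a median log2 fold of 3.32.

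The log2 folds of the cocultures were subtracted, LNCaP minus PC-3, with an interval for counting error. The difference was 5.06 for AXL (3.61 to 6.50), 2.02 for CCN2 (0.89 to 3.15), 0.94 for WWTR1 (0.45 to 1.44), 0.54 for CCN1 (0.27 to 0.82) and -0.24 for YAP1 (-0.33 to -0.14), and the intervals of the other 5 held 0. A fold depends on the starting level, which for AXL, CCN2, WWTR1 and CCN1 was far higher in PC-3. The same differences were therefore also taken in CPM, coculture minus monoculture. CPM are shares of a library, so the CPM of a cancer cell gene can fall when fibroblast RNA is added. The part of fibroblast RNA in either coculture was not measured and need not be equal. Differences in CPM thus depend on the starting level and on that part too. AXL was higher by 8.19 CPM in the LNCaP coculture (6.74 to 9.64), against a difference of -0.013 CPM in the PC-3 coculture (-4.44 to 4.41), an interval that does not reach the LNCaP value. CCN1 was higher by 6.48 CPM in the LNCaP coculture (3.68 to 9.29) and by 3.74 CPM in the PC-3 coculture (-3.68 to 11.2), intervals that overlap. CCN2 was higher by 1.43 CPM in the LNCaP coculture (0.691 to 2.16), against a difference of -4.87 CPM in the PC-3 coculture (-11.1 to 1.32), and these intervals overlap although those of the folds do not. WWTR1 was higher by 3.02 CPM in the LNCaP coculture (1.52 to 4.52) and by 6.51 CPM in the PC-3 coculture (-7.37 to 20.4), which overlap too. LATS2 was higher in either coculture by overlapping amounts, 4.10 CPM in LNCaP (1.40 to 6.79) and 6.22 CPM in PC-3 (2.71 to 9.74). YAP1 differed by -47.9 CPM in the LNCaP coculture (-58.7 to -37.2) and by -9.17 CPM in the PC-3 coculture (-19.6 to 1.22), without overlap.

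Further reported targets of YAP and TAZ, 17 genes beside the members, were mostly lower in LNCaP as well. In the monocultures 12 of 16 measured were at least 2-fold lower in LNCaP and 1 higher (median log2 fold -3.79, or -3.45 with genes at 0 at their bound), and in the cocultures 11 of 17 were lower and 1 higher (median -2.31). Over all genes 23.6% were lower and 22.1% higher in the monocultures (median 0.04), and 23.6% lower and 20.7% higher in the cocultures (median 0.01). MYOF, the membrane repair protein myoferlin, had 12 counts in the LNCaP monoculture against 6402 in the PC-3 monoculture (528-fold lower, 302 to 1022), TGFB2, a TGF-beta ligand, 4 against 1316 (325-fold lower, 127 to 1196), and CRIM1, a transmembrane BMP antagonist, 23 against 2089 (89.8-fold lower, 59.7 to 142). IGFBP3, a binding protein of insulin-like growth factors, was 13.9-fold lower (12.9 to 14.9) and PTPN14, a phosphatase that binds YAP1, 3.46-fold lower (3.09 to 3.89). By the same rule NT5E (1 against 1509 counts, 1493-fold, 268 to 58998), CCDC80 (97.6-fold), FJX1 (31.4-fold) and ASAP1 (4.58-fold) were lower in the LNCaP monoculture, and RBMS3, F3 and ANKRD1, with 0 counts there, were at least 19.5-fold, 8.57-fold and 8.24-fold lower. NUAK2, an AMPK-related kinase, was 5.25-fold higher in the LNCaP monoculture (3.67 to 7.67). GADD45A, DOCK5 and ARHGEF17 stayed within 2-fold.

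In the LNCaP coculture 7 of 14 measured genes of this target list were at least 2-fold higher than in the LNCaP monoculture and 0 lower, at a median log2 fold of 0.92, where 4.56% of all genes were higher and 3.03% lower, at a median of 0.00. NT5E, the ectonucleotidase CD73, had 341 counts against 1 (347-fold, 61.9 to 13751). MYOF was 19.1-fold higher (10.7 to 37.5), CCDC80 12.4-fold higher (5.42 to 34.9), CRIM1 8.76-fold higher (5.68 to 14.1) and FJX1 2.27-fold higher (1.14 to 4.76). F3, tissue factor, had 31 counts against 0 (at least 10.5-fold higher) and FOXF2, a mesenchymal forkhead factor, 23 against 0 (at least 7.80-fold higher). PTPN14 was the lowest of the list (0.796-fold, 0.682 to 0.929). In the PC-3 coculture 1 of 17 (median log2 fold 0.03) was at least 2-fold higher and 0 lower, where 2.22% of all genes were higher and 1.01% lower: FOXF2, with 26 counts against 0 (at least 8.83-fold higher), and F3 had 51 counts against 26 (2.00-fold, 1.22 to 3.34). Fibroblast marker levels were above those of the monocultures in these same libraries, and the part of fibroblast RNA in the target list was not tested.

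**Figure D4:**
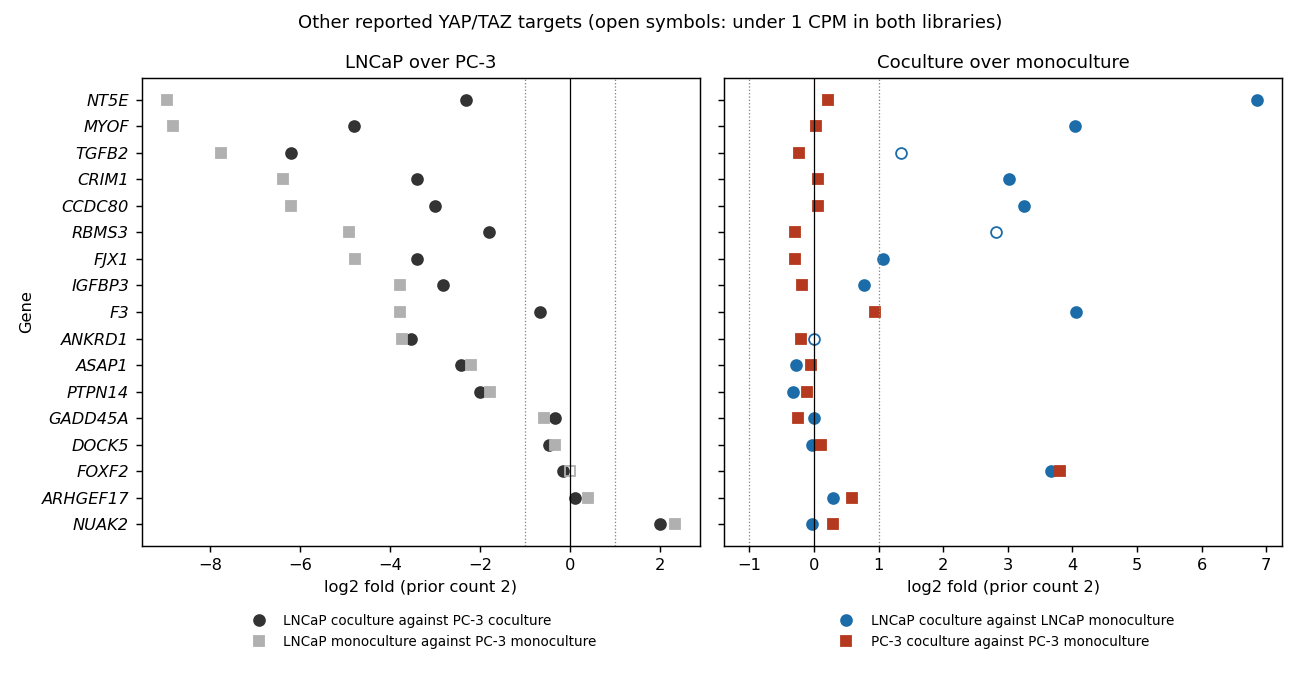
Log2 folds (prior count 2) of 17 further reported targets, LNCaP over PC-3 on the left (cocultures black, monocultures grey) and coculture over monoculture on the right (LNCaP blue, PC-3 red), ordered by the fold between the monocultures; points of genes at 0 counts in 1 library depend on the prior count. On the right, 7 filled LNCaP points lie at least 2-fold above 0 and the PC-3 points, apart from FOXF2, stay within 2-fold.

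Of 10 Hippo kinases and their adaptors, which restrain the coactivators, 0 reached 2-fold by coculture in either line, a count near the shares over all genes. Those shares were 4.56% higher and 3.03% lower in LNCaP, and 2.22% higher and 1.01% lower in PC-3. The median log2 folds of the list were 0.13 in LNCaP and -0.08 in PC-3. In that list TAOK3 was the highest (1.16-fold, 1.04 to 1.28) and TAOK2 the lowest (0.856-fold, 0.800 to 0.917) in the LNCaP coculture. In the PC-3 coculture STK3 was the highest (1.08-fold) and MAP4K4 the lowest (0.858-fold, 0.822 to 0.895). Between the lines, LATS1, the partner kinase of LATS2, was higher in LNCaP, 2.71-fold in the coculture (2.48 to 2.96) and 2.22-fold in the monoculture (2.03 to 2.42), where LATS2 was lower. MAP4K4, an upstream kinase, was lower in LNCaP, by 2.12-fold in the coculture (2.01 to 2.24) and 2.29-fold in the monoculture (2.17 to 2.42). The others past 2-fold were STK3 in the cocultures (2.02-fold higher in LNCaP) and the adaptor MOB1A in the monocultures (2.49-fold lower).

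Scaffolds and upstream regulators held genes that were higher and genes that were lower in LNCaP. Of 14 measured in the monocultures, 4 were at least 2-fold higher in LNCaP and 6 lower, where 22.1% of all genes were higher and 23.6% lower. The cocultures gave the same counts, beside 20.7% of all genes higher and 23.6% lower. AMOT was 5.94-fold higher in the LNCaP monoculture (4.70 to 7.59) and its relative AMOTL1 45.8-fold lower (30.6 to 71.8), so AMOT differed in the opposite direction from its relatives AMOTL1 and AMOTL2. WWC1 (KIBRA) was 2.94-fold higher (2.69 to 3.22) and WWC2 6.14-fold lower (4.58 to 8.37), and the FERM protein gene FRMD6 was 69.0-fold lower (49.9 to 98.3). FAT1 (2.68-fold) and DCHS1 (74 against 0 counts, at least 24.9-fold) were also higher, and AJUBA (3.40-fold), SCRIB (3.22-fold) and FAT4 (0 against 21 counts, at least 6.92-fold) lower, in the LNCaP monoculture. By coculture in LNCaP, FRMD6 was 5.28-fold higher (3.70 to 7.73) and AMOTL1 3.69-fold higher (2.33 to 6.07), 2 of 13 measured, with 0 lower, where 4.56% of all genes were higher and 3.03% lower. FRMD6 was the lowest of this list in the PC-3 coculture (2075 counts against 2582 in the PC-3 monoculture, log2 fold -0.29). The atypical cadherin gene DCHS1 had 25 counts in the PC-3 coculture against 0 in the PC-3 monoculture (at least 8.49-fold higher), the 1 gene of 14 past 2-fold there, where 2.22% of all genes were higher. Among the TEAD-binding cofactors, VGLL3 had 32 counts in the LNCaP coculture against 0 in the LNCaP monoculture (at least 10.9-fold higher), and VGLL1 was at 0 in either LNCaP library against 136 and 180 counts in the PC-3 coculture and monoculture. VGLL3 was the lowest of its list in the PC-3 coculture, with 45 counts against 75 in the PC-3 monoculture (log2 fold -0.69). VGLL4, which competes with YAP1 for TEAD, was 0.850-fold in the LNCaP coculture (0.807 to 0.895) and 0.972-fold in the PC-3 coculture (0.912 to 1.04).

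The relatives of CCN1, CCN2 and AXL were read as well. All 3 further CCN genes in the table were at least 2-fold lower in LNCaP in either pair, where 23.6% of all genes were lower. CCN4 had 2 and 4 counts and CCN5 0 and 4 counts in the LNCaP coculture and monoculture, near the floor of 3 counts. CCN3 was lower by 19.2-fold in the coculture (13.0 to 29.7) and 88.7-fold in the monoculture (40.5 to 243). It was 4.41-fold higher in the LNCaP coculture than in the LNCaP monoculture (26 against 6 counts, 1.78 to 13.1). GAS6, the ligand of AXL, had 17.7 CPM in the LNCaP coculture and 15.96 CPM in its monoculture, with 17.2 CPM in the PC-3 coculture against 13.8 CPM in the PC-3 monoculture, close to level in all 4 where AXL was not. Of the sister receptors, MERTK was higher in LNCaP (2.49-fold in the monoculture, 1.86 to 3.36, and 3.60-fold in the coculture, 2.71 to 4.85) and TYRO3 was lower by less than 2-fold, while the ligand gene PROS1 was 5.89-fold lower in the LNCaP monoculture (4.63 to 7.57). By coculture, 0 of these 4 ligand and receptor genes reached 2-fold in either line, a count near the shares over all genes. Those shares were 4.56% higher and 3.03% lower in LNCaP, and 2.22% higher and 1.01% lower in PC-3.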

How the data were processed

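RNA from 4 libraries, 1 per group, was sequenced after QIAshredder and RNeasy extraction and TruSeq RNA v2 preparation, per the labels' protocols; whether tissues were pooled is not given in the sources used here. Estimated counts, 1 value per symbol and library, are what the authors deposited, unscaled; between 33.7% and 34.1% of values were not whole, and all were rounded to whole numbers. The submitters' processing notes list FastQC, STAR, Partek and hg38; roles, versions and annotation are not given in the sources used here. TMM factors came from edgeR 4.0.16 in R 4.3.3; other steps used Python 3.11.15, scipy 1.17.1 and statsmodels 0.14.6, checked on simulated data. No test was run, since each group had 1 library. Positions and promoters came from RefSeq (GRCh38.p14), exon lengths from GENCODE, matched for 96.0% of symbols. The members, lists and rules were chosen with earlier results of these data known. The text names the members and some genes of lists fixed with them. Those list genes are mainly the highest and lowest of a list, and genes at least 2-fold apart with a counting interval outside 1 (largest first). It also names the 3 genes nearest to each member that spans at least 2 on the log2 scale. VGLL2, CCN6, CDH5, PTPRC and CD3E, also on the lists, were not analysed here. Alternatives were DESeq2 1.42.0 size factors, total counts, no filter or 5 CPM, a prior count of 0.5, unrounded counts, and removal of a lowess trend on coding length.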

Additional observations from a re-analysis of the deposited data

Results flagged for a closer look

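For 4 members the coculture lay on opposite sides of its monoculture in the cancer lines; with 1 library a group none of these differences was tested. The difference of log2 folds, LNCaP minus PC-3, was 5.06 for AXL, from a log2 fold of 5.06 in LNCaP and 0.00 in PC-3, where the sign has no weight. For CCN2 it was 2.02, from 1.93 in LNCaP and -0.09 in PC-3. For TEAD4 it was 0.35 (-0.19 to 0.88) and for TEAD1 0.11 (-0.06 to 0.27), with counting intervals that hold 0.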

How the results depend on the processing

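No paired analysis was possible because each group had 1 library, and none could be left out. Under the 7 alternatives, 277 of 279 member log2 folds stayed within their counting interval and 0 changed sign where the interval excluded 0; the others were YAP1 between the monocultures, with 0.13 under DESeq2 size factors and 0.12 with the coding length trend removed, against 0.19. All 69 differences between the lines stayed within their intervals. The filter settings cannot alter a fold. Their 40 log2 folds with no filter and 39 at 5 CPM, and their 10 and 9 differences, were therefore unchanged by construction. With a minimum of 5 CPM, 1 member in place of 2 was at least 2-fold higher in the LNCaP coculture, since CCN2 was below it. The counts over all genes moved most. With no filter, 1286 were higher and 753 lower in the LNCaP coculture and 906 and 440 in the PC-3 coculture; at 5 CPM, 240 and 154, and 87 and 21. The filters alter which genes are counted. With the length trend removed, 222 were lower in the LNCaP and 85 in the PC-3 coculture, against 428 and 146 in the main setting. That setting kept only genes with a coding length, 12746 of 14119 in LNCaP and 13117 of 14417 in PC-3. How much of the shift came from the smaller set and how much from the trend was not tested. TEAD1 crossed the 2-fold line between the cocultures with DESeq2 size factors and with the length trend removed (log2 fold -1.04), which made 6 members lower there. No scaling moved the median of all genes by more than 0.1. Depth limits CCN2 and AXL in the LNCaP monoculture, at 6 and 2 counts.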

Other observations

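The 3 genes most like each member that varied widely were taken by the distance between log2 CPM values centred over the 4 libraries, among 10051 genes with at least 20 CPM in 1 library; with 4 points this is a description and says nothing of shared function. Nearest to WWTR1 was SPTBN1, a spectrin, with 6.06 CPM in the LNCaP coculture and 3.23 CPM in its monoculture, with 419.7 CPM in the PC-3 coculture against 388 CPM in the PC-3 monoculture (distance 0.09), followed by SNTB1 and TRIM58. Nearest to CCN2 was DUSP6, a phosphatase of ERK, with 4.90, 1.01, 181 and 178 CPM in the same order (distance 0.19), followed by PRDM8 and IFITM1. Nearest to AXL were OLFML3 (0.18), TMEM158 (0.32) and SEMA3A (0.33), of which OLFML3 and SEMA3A had 0 counts in the LNCaP monoculture and TMEM158 had 72.5, 2.60, 327 and 336 CPM. Nearest to CCN1 were IFI35 (0.10), ROBO1 (0.11) and TMEM145 (0.13).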
